A study of Homo sapiens with 6 samples.

Results

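Mitochondrial DNA in human cells encodes the catalytic core of the respiratory chain, and 7 of its transcripts are described here in SH-SY5Y, a human neuroblastoma cell line used as a dopaminergic cell model. They are the messenger RNAs of cytochrome c oxidase subunits (MT-CO1, MT-CO2 and MT-CO3), of cytochrome b (MT-CYB) and of the ATP synthase subunits (MT-ATP8 and MT-ATP6), and the large ribosomal RNA of the mitochondrial ribosome (MT-RNR2). They were taken as every gene of the deposited table whose name starts with MT-CO, MT-CYB, MT-ATP or MT-RNR, which gave 7 of 4101 genes. The METH-treatment group was 3 cultures given 2 mM methamphetamine (METH, a psychostimulant) for 24 h, and the PBS-treatment group was 3 cultures given the same volume of PBS for the same time. All cultures were wild type and were grown in F12 and minimum essential medium with fetal bovine serum. The labels also carry a time of day 0, which was set aside for the 24 h of the treatment protocol. Nothing in the labels says whether the cultures of a group were grown on separate days, so the spread between libraries may be technical. Library names follow the column numbers of the table (10 to 12 for PBS, 1 to 3 for METH), since the labels number the PBS samples otherwise.

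The table holds genes marked significant between the same METH and PBS libraries, so all 7 genes were selected on their difference in expression between the groups. Their values are therefore given as a description, and no test of them is used as support. Mitochondrial genes that are not in the table, such as MT-RNR1, were not analysed here. PBS 11 stood apart from the other PBS libraries in the messenger RNAs, and several values that it moves are also given without it. For the sums, ratios, coefficients of variation and correlations this alternative was chosen after seeing the data.

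Both strands of mitochondrial DNA are transcribed as long precursors, which are cut at the transfer RNAs to release messenger and ribosomal RNAs. Cytochrome c oxidase (complex IV) passes electrons to oxygen, cytochrome b sits in complex III, which hands electrons to cytochrome c, and the ATP synthase uses the resulting proton gradient to make ATP. Each of these complexes also needs many subunits encoded in the nucleus. Neurons draw much of their ATP from this chain, and its share in the cell line used here was not tested.

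By GENCODE release 29 on GRCh38, all 7 genes lie on the heavy-strand precursor of mitochondrial DNA (the plus strand of the annotation). The deposited table has no positions and its genome build is not given in the sources used here. MT-RNR2 spans positions 1671 to 3229 of chromosome M, MT-CO1 5904 to 7445, MT-CO2 7586 to 8269, MT-ATP8 8366 to 8572, MT-ATP6 8527 to 9207, MT-CO3 9207 to 9990 and MT-CYB 14747 to 15887. None has an intron. Their identifiers in the table are ENSG00000210082 (MT-RNR2), ENSG00000198804 (MT-CO1), ENSG00000198712 (MT-CO2), ENSG00000228253 (MT-ATP8), ENSG00000198899 (MT-ATP6), ENSG00000198938 (MT-CO3) and ENSG00000198727 (MT-CYB). The 6 messenger RNAs are poor in G on the annotated strand, from 6.28% in MT-ATP8 to 16.2% in MT-CO1, and their GC content ranges from 39.6% in MT-ATP8 to 46.6% in MT-CO3.

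MT-ATP8 and MT-ATP6 are read from the same messenger RNA in different frames. Their sequences, shown because reads from the shared stretch belong to both genes, overlap by 46 bases. The whole MT-ATP8 gene (207 bases) and the first 90 bases of MT-ATP6 are printed 5′ to 3′ from the GENCODE transcripts, with the shared bases in capitals.
MT-ATP8: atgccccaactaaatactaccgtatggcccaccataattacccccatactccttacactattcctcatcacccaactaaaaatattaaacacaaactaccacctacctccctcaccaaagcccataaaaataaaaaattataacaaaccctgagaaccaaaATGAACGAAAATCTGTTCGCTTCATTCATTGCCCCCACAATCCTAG
MT-ATP6: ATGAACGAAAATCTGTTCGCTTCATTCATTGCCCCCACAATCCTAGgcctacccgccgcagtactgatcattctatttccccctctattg

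MT-ATP6 and MT-CO3 share 1 base, in capitals below, so that MT-ATP8, MT-ATP6 and MT-CO3 form an unbroken run on the precursor. No transfer RNA separates them. The last 30 bases of MT-ATP6 and the first 30 of MT-CO3 show the joint.
MT-ATP6 end: gtaagcctctacctgcacgacaacacataA
MT-CO3 start: Atgacccaccaatcacatgcctatcatata

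MT-CO3 and MT-CYB end 1 base past their last whole codon, which is in capitals in the last 30 bases below. That T opens a stop codon which the poly(A) tail completes, a known feature of human mitochondrial messenger RNAs.
MT-CO3 end: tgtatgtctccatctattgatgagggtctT
MT-CYB end: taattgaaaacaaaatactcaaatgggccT

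The expression columns are headed FPKM, and the values below are in that unit as headed. In each library all values fell on multiples of 1 smallest increment, which was the same for every gene (0.00903 to 0.0117 FPKM between libraries). FPKM values of genes of different length would not share an increment. MT-ATP8 (207 bases) nevertheless stood 2.52 to 2.83 times above MT-ATP6 (681 bases) in every library, although both are on the same messenger RNA. Whether the values are corrected for length is therefore not settled, so the levels of different genes are not ranked. Sums and ratios over genes are used only to compare libraries with each other.

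The 6 messenger RNAs were lower and the ribosomal RNA was higher in the METH-treatment group. Summed, the 6 messenger RNAs stood at 71064, 34931 and 61669 FPKM in PBS 10, PBS 11 and PBS 12, and at 17662, 24867 and 19307 FPKM in METH 1, METH 2 and METH 3. The means were 55888 ± 18748 FPKM with PBS and 20612 ± 3775 FPKM with METH (SD, n = 3 each), a 2.71-fold difference (3.22-fold without PBS 11), and the groups did not overlap. The median limma difference of the 6 was -1.71 on the log2 scale, and -2.06 without PBS 11. By gene, the differences without PBS 11 were -1.41 (MT-CO1), -1.15 (MT-CO2), -2.36 (MT-CO3), -2.02 (MT-CYB), -2.10 (MT-ATP8) and -2.18 (MT-ATP6). Values are relative to the library, and in a bulk sample a smaller share of cells rich in these RNAs and less of them per cell cannot be told apart.

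The cytochrome c oxidase subunits differed in the size of their decrease. MT-CO1, which carries the heme and copper centre where oxygen is reduced, was at 15882, 8367 and 10695 FPKM in PBS 10, PBS 11 and PBS 12 and at 4380, 5808 and 4669 FPKM in METH 1, METH 2 and METH 3. Its lowest PBS value was 1.44 times its highest METH value. On log2(FPKM + 0.1), the limma difference was -1.19 (standard error 0.429).

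MT-CO2, which takes electrons from cytochrome c through its copper centre, was at 15576, 9982 and 16561 FPKM with PBS and at 6661, 9215 and 6170 FPKM with METH. PBS 11 and METH 2 came close to each other, with a ratio of 1.08, although the groups did not overlap. The limma difference was -0.92 (standard error 0.453), the smallest decrease among the 6 messenger RNAs.

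MT-CO3, a core subunit without a metal centre, had the largest decrease of the 6. It was at 8844, 3981 and 9029 FPKM with PBS and at 1518, 2072 and 1679 FPKM with METH. Its mean fell 4.15-fold, from 7285 ± 2862 to 1756 ± 285 FPKM (SD, n = 3 each), and the limma difference was -1.97 (standard error 0.418). Ranked by limma difference, MT-CO3 was number 43 from the bottom of the 4101 genes.

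MT-CO2 and MT-CO3, the subunits with the smallest and the largest decrease, did not keep their proportion. MT-CO2 was 1.76, 2.51 and 1.83 times MT-CO3 in the PBS libraries and 4.39, 4.45 and 3.68 times MT-CO3 in the METH libraries. The mean ratio was 2.03 ± 0.411 with PBS and 4.17 ± 0.430 with METH (SD, n = 3 each). The ratio of MT-CO2 to MT-CO1, in contrast, overlapped between the groups, with 0.981, 1.19 and 1.55 in the PBS libraries and 1.52, 1.59 and 1.32 in the METH libraries. A change of scale between libraries cannot move these ratios, since both values come from the same library.

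MT-CYB, the cytochrome b of complex III and its only subunit made in mitochondria, was at 2855, 1334 and 2254 FPKM with PBS and at 511, 765 and 629 FPKM with METH. The lowest PBS value was 1.74 times the highest METH value. The limma difference was -1.71 (standard error 0.347), the smallest standard error of the 7 genes.

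The ATP synthase genes moved together. MT-ATP8, a small subunit of the stalk, was at 20109, 8098 and 16569 FPKM with PBS and at 3287, 5122 and 4551 FPKM with METH. MT-ATP6, which forms the proton channel, was at 7800, 3169 and 6561 FPKM with PBS and at 1306, 1886 and 1610 FPKM with METH. In both genes PBS 11 was the lowest PBS library and METH 1 the lowest METH library, and the groups did not overlap. The limma differences were -1.71 (standard error 0.483) for MT-ATP8 and -1.78 (standard error 0.416) for MT-ATP6. The ratio of MT-ATP8 to MT-ATP6 was 2.55 ± 0.0266 with PBS and 2.69 ± 0.157 with METH (SD, n = 3 each), and its 2 ranges overlapped.

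MT-RNR2, the ribosomal RNA of the large subunit of the mitochondrial ribosome, went the other way. The libraries are mRNA libraries, and how fully they captured this ribosomal RNA was not tested. It was at 7698, 8247 and 7093 FPKM in PBS 10, PBS 11 and PBS 12 and at 10899, 12904 and 9707 FPKM in METH 1, METH 2 and METH 3. The lowest METH value was 1.18 times the highest PBS value. The limma difference was 0.53 (standard error 0.413). Among PBS libraries MT-RNR2 varied by 7.51% of its mean (coefficient of variation), against 25.3% for MT-CO2 and 41.4% for MT-ATP8. This contrast rested in part on PBS 11. Over PBS 10 and PBS 12 alone MT-RNR2 varied by 5.78%, more than MT-CO2 (4.34%) and MT-CO3 (1.47%). It still varied less than MT-ATP6 (12.2%), MT-ATP8 (13.7%), MT-CYB (16.6%) and MT-CO1 (27.6%). Among METH libraries MT-RNR2 varied by 14.5%, close to 15.2% for MT-CO1 and below 22.3% for MT-CO2.

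**Figure D1:**
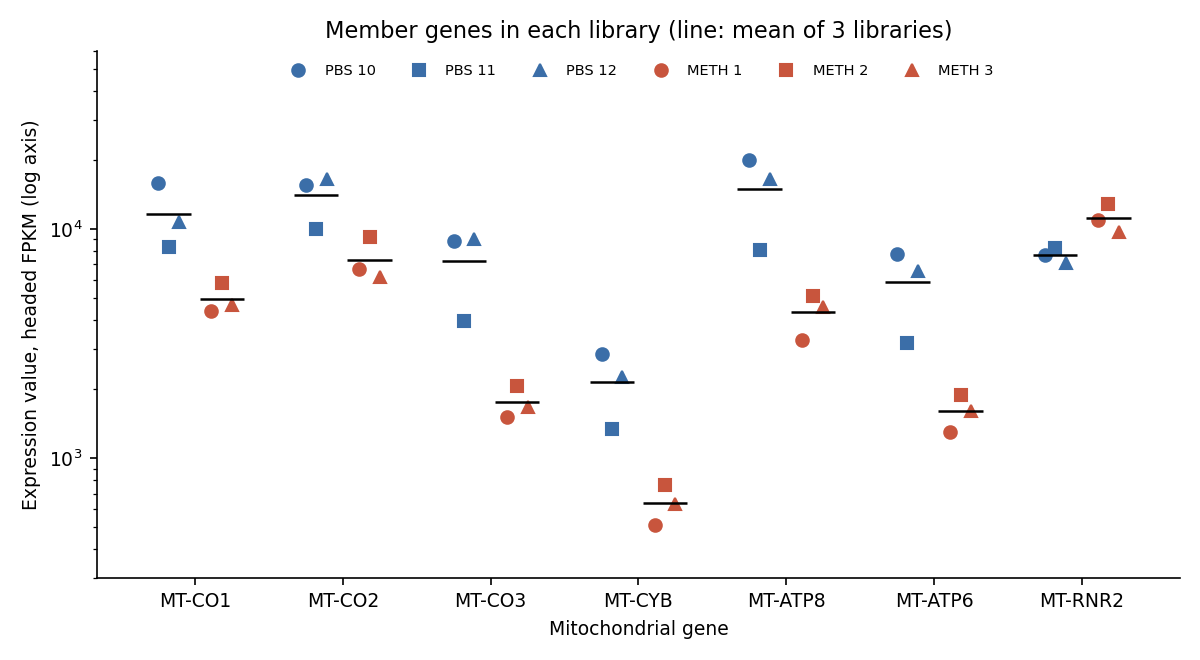
Expression value (headed FPKM, log axis) of the 7 genes in each library, PBS in blue and METH in red, with a line at the mean of 3 libraries. For the 6 messenger RNAs every METH point lies below every PBS point, and for MT-RNR2 every METH point lies above, the closest pair being PBS 11 and METH 2 in MT-CO2.

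At a Benjamini-Hochberg threshold applied to all 4101 genes, limma gave 5 of the 7 genes an adjusted p-value under 0.1 with lower values, where 35.8% of all genes were called lower. The 2 others were MT-CO2 (adjusted p = 0.102) and MT-RNR2 (adjusted p = 0.241), and none was called higher, against 33.3% of all genes. The METH libraries lay below the PBS libraries in 6 of the 7 genes (33.0% of all genes) and above them in 1 (31.0% of all genes). Nothing is read from these counts, because the same contrast chose the table. MT-CO1 kept its call without PBS 11 but not without any other library, with adjusted p-values of 0.101 without PBS 10, 0.122 without PBS 12, 0.165 without METH 1, 0.127 without METH 2 and 0.111 without METH 3. MT-ATP8 lost it without METH 1 (adjusted p = 0.112), and MT-CO2 gained it without PBS 11 (adjusted p = 0.0410). MT-CO2 was also called with 0.01 added before log2 (adjusted p = 0.0927), among genes with a mean of at least 1 FPKM (0.0726), with libraries scaled to the same median ratio (0.0714) and with totals without mitochondrial genes (0.0859). When limma was run without a trend of variance on expression, MT-CO2 (adjusted p = 0.0417) and MT-RNR2 (adjusted p = 0.0785) were also called.

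Because MT-RNR2 and the messenger RNAs moved in opposite directions, their ratio separated the groups more widely than either. MT-RNR2 was 0.108, 0.236 and 0.115 times the summed messenger RNAs in PBS 10, PBS 11 and PBS 12. In METH 1, METH 2 and METH 3 it was 0.617, 0.519 and 0.503 times the sum. The mean ratio was 0.153 ± 0.0719 with PBS and 0.546 ± 0.0619 with METH (SD, n = 3 each), 3.57-fold higher with METH and 4.89-fold higher without PBS 11. The mean log2 ratio differed by 1.92. With each library left out in turn it ranged from 1.72 without PBS 10 to 2.28 without PBS 11, and scaling the libraries does not change it. A difference between the mRNA libraries in their capture of ribosomal RNA would change it, and was not tested.

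**Figure D2:**
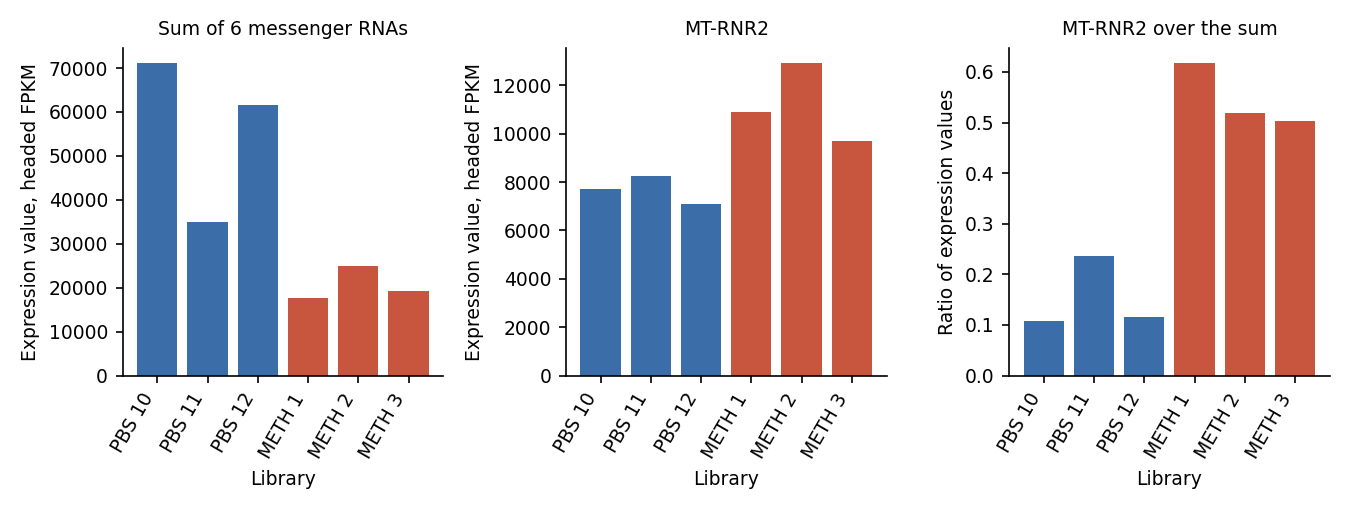
Bars from 0 of the summed 6 messenger RNAs, of MT-RNR2 (both as headed FPKM) and of the ratio of MT-RNR2 to the sum, for each library, PBS in blue and METH in red. PBS 11 has the lowest sum of the PBS libraries (34931) and the highest PBS ratio (0.236), still below the lowest METH ratio (0.503).

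Messenger RNAs for complex I, the entry point of electrons from NADH, are also encoded in mitochondrial DNA. The table holds 7 genes for them (MT-ND1 to MT-ND6 and MT-ND4L), of which MT-ND6 is on the light strand. MT-ND4L ends at position 10766 and MT-ND4 starts at 10760, so reads from that stretch belong to both. Their limma differences ranged from -1.35 to -0.57 with a median of -1.01, beside -1.97 to -0.92 and a median of -1.71 for the 6 genes above. The median over all 4101 genes was 0.11. The summed 6 messenger RNAs were 2.09, 1.91 and 2.14 times the summed complex I messenger RNAs in the PBS libraries and 1.36, 1.50 and 1.45 times in the METH libraries, so that the groups did not overlap in this ratio. Its PBS mean was 2.05, and 2.12 without PBS 11.

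Along mitochondrial DNA the decreases did not follow a steady slope. After MT-RNR2 came MT-ND1 and MT-ND2 (-1.35 and -1.26), then MT-CO1 and MT-CO2 (-1.19 and -0.92). The unbroken run of MT-ATP8, MT-ATP6 and MT-CO3 (-1.71, -1.78 and -1.97) followed. Beyond it, MT-ND3 (-0.57), MT-ND4L (-0.84), MT-ND4 (-0.78) and MT-ND5 (-1.01) had smaller decreases. MT-ND6 (-1.32) and, at the far end, MT-CYB (-1.71) again had larger ones. Within the run, the ratio of MT-CO3 to MT-ATP6 overlapped between the groups. It was 1.13, 1.26 and 1.38 in the PBS libraries and 1.16, 1.10 and 1.04 in the METH libraries. MT-CO3 and MT-ND3, which are separated by the gene of a transfer RNA alone, differed more (-1.97 and -0.57, standard errors 0.418 and 0.409). These standard errors are for single genes, and do not measure the spread of a difference between genes of the same libraries.

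MT-TS1, a transfer RNA gene on the light strand, lies between MT-CO1 and MT-CO2, at positions 7446 to 7514. Its value was 201, 90.3 and 145 FPKM with PBS and 56.1, 75.3 and 57.4 FPKM with METH, and its limma difference of -1.15 (standard error 0.297) was close to that of MT-CO1. The MT-CO1 messenger RNA is known to run on through the antisense of this gene. Whether counting used strand is not given in the sources used here, so reads of MT-TS1 and of the end of MT-CO1 cannot be told apart. MT-ND6, also on the light strand, had a limma difference of -1.32 (standard error 0.358).

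**Figure D3:**
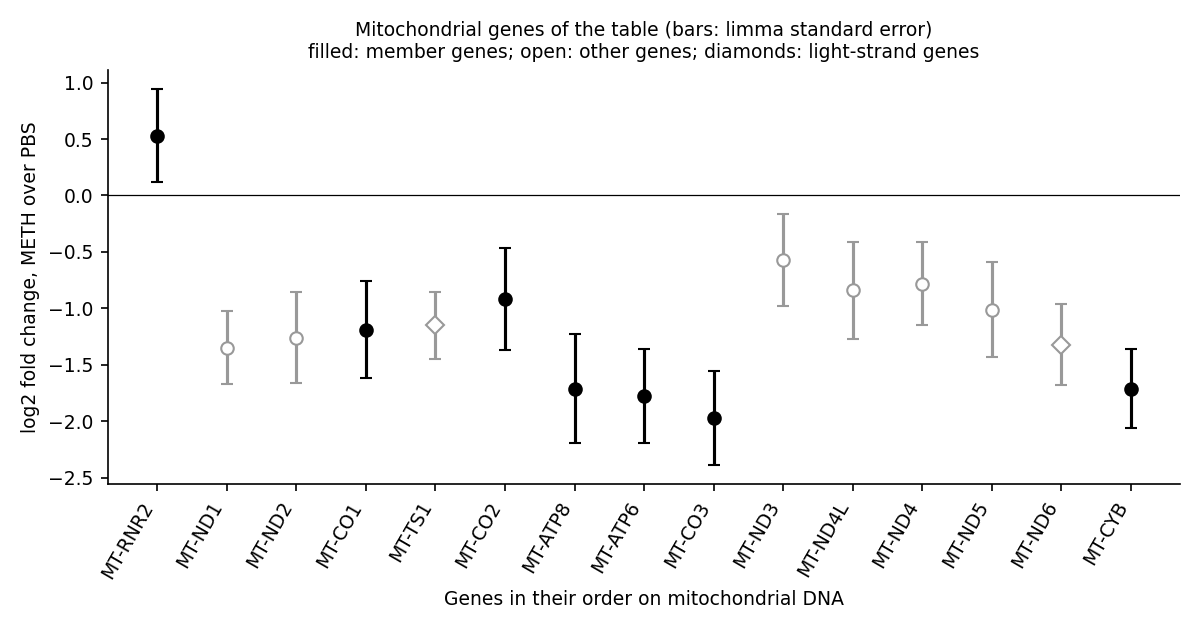
Difference between METH and PBS on the log2 scale (limma, bars are standard errors) for the 15 mitochondrial genes of the table in their order on mitochondrial DNA, the 7 genes described here filled and light-strand genes as diamonds. MT-RNR2 (0.53) is the single value above 0, and MT-ATP8, MT-ATP6, MT-CO3 and MT-CYB lie at -1.71 or lower.

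Libraries of the same group also differed from each other, and the messenger RNAs did so together. After each gene's group mean was subtracted on the log2 scale, PBS 11 lay below the mean in all 6 messenger RNAs, by 0.43 to 0.78, and PBS 10 lay above it in all 6, by 0.18 to 0.53. METH 2 lay above its group mean in all 6, by 0.24 to 0.35. The correlation of these deviations over the 6 libraries was between 0.75 (MT-CO1 and MT-CO2) and 0.99 over the 15 pairs of messenger RNAs, with a median of 0.92. Pairs are of genes, and MT-ATP8 and MT-ATP6 (0.99) are on the same messenger RNA. The correlations of MT-RNR2 with the messenger RNAs lay between -0.17 and 0.19. Both depended on PBS 11. Over the 5 other libraries the pairs of messenger RNAs gave 0.43 to 0.99 with a median of 0.81, and MT-RNR2 gave 0.42 to 0.89 with them. These are descriptions over at most 6 libraries that share depth and handling, with 2 group means removed.

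**Figure D4:**
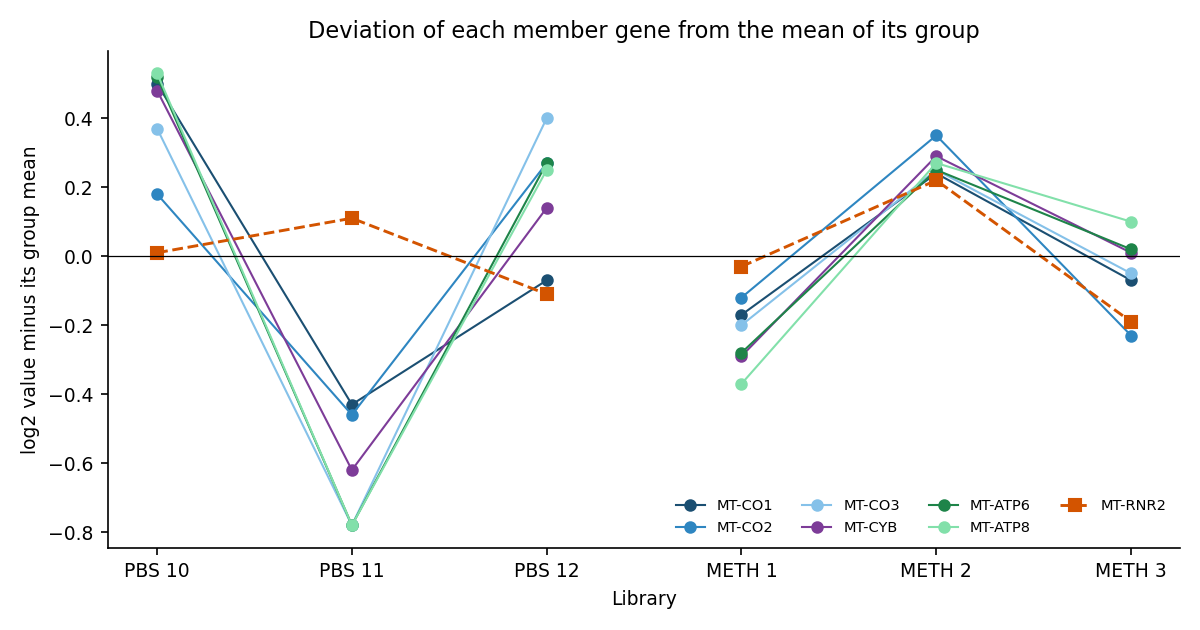
Deviation of the log2 value of each gene from the mean of its group, for the 6 messenger RNAs (solid lines) and MT-RNR2 (dashed). The messenger RNAs dip together in PBS 11, to between -0.78 and -0.43, where MT-RNR2 stands at 0.11.

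Genes outside mitochondrial DNA were ranked by their likeness to these patterns, as Pearson's r over the 6 libraries with the mean log2 value of the 6 messenger RNAs, among 3610 genes with a mean of at least 1 FPKM. The 5 most alike were ZNF595 (r = 0.997), DLEU2 (r = 0.996), MTATP6P1 (r = 0.995), SLC8A3 (r = 0.993) and AL392083.1 (r = 0.992). As background, 9.34% of these genes had r over 0.9. SLC8A3, a sodium-calcium exchanger, went from 16.6 ± 1.81 to 10.8 ± 0.622 FPKM (SD, n = 3 each), a smaller fold than any of the messenger RNAs. The 4 most like MT-RNR2 were RIPK2 (r = 0.999), ACOT13 (r = 0.994), LINC00602 (r = 0.986) and SLC38A6 (r = 0.985), where 7.37% of genes had r over 0.9. ACOT13 is a thioesterase of acyl-CoA associated with mitochondria, and it went from 9.53 ± 1.06 to 13.7 ± 1.83 FPKM (SD, n = 3 each).

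MTATP6P1 in that list is a copy of MT-ATP6 in nuclear DNA, on chromosome 1 from 633696 to 634376. It differs from MT-ATP6 at 10 of 681 positions (98.5% identical by reference sequence). A stretch of 120 bases, positions 73 to 192 counted from the first base of MT-ATP6, are printed for both to show how alike they are, with the 4 differing bases (C129T, A151C, A175G and A192G) in capitals.
MT-ATP6: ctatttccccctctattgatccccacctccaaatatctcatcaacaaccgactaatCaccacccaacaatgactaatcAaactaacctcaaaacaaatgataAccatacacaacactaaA
MTATP6P1: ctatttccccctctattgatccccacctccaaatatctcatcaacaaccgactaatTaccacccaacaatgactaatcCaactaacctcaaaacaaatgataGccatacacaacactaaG

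MTATP6P1 was listed at 685, 269 and 559 FPKM with PBS and at 120, 156 and 111 FPKM with METH. That is 8.78%, 8.48% and 8.52% of MT-ATP6 in the PBS libraries and 9.20%, 8.28% and 6.90% in the METH libraries. The ranges of the share overlapped between the groups, while the values of both genes did not. Of the 50-base windows of MT-ATP6, 46.7% occur unchanged in MTATP6P1, and of the 100-base windows 11.9% do. Reads from either gene within such windows cannot be assigned, so the value of the nuclear copy is uncertain.

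Similar copies exist for the other genes. Of the 50-base windows of MT-CO1, 49.4% occur in MTCO1P12, and the shares are 30.6% of MT-CO3 in MTCO3P12, 184 of 635 windows of MT-CO2 in MTCO2P12, 8.23% of MT-ATP8 in MTATP8P1 and 1.19% of MT-CYB in MTCYBP18. None of these 5 copies is in the table. MT-RNR2 shares 10.1% of its windows with MTRNR2L12, which is not in the table, and 0.728% with MTRNR2L1, which is. MTRNR2L1 was at 60.6, 82.2 and 62.4 FPKM with PBS and at 101, 92.0 and 72.9 FPKM with METH, between 0.713% and 0.997% of MT-RNR2, and its groups overlapped. MTND2P28, the remaining copy in the table, was lower with METH (limma difference -0.91, adjusted p = 0.0703). Among the 3 listed copies, 2 were called lower, and 1 without PBS 10, PBS 12, METH 1 or METH 2.

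Genes in the nucleus that work with these RNAs were described by lists, within the same table and so under the same selection. Their counts are to be set beside 35.8% of all genes called lower and 33.3% called higher. Of 57 names of nuclear complex III and IV subunits and assembly factors, 9 are in the table. Of these, 2 were called lower and 4 higher, with a median limma difference of 0.47 beside 0.11 over all genes. The 4 fell to 0 without METH 1 and to 1 without METH 2 or without PBS 12, and each of these fits left 1 called lower. The largest differences were in TMEM177, a factor for the MT-CO2 protein (-0.89, adjusted p = 0.0216), COX16, an assembly factor of cytochrome c oxidase (0.79, adjusted p = 0.0407), and COX10, which makes the heme A precursor (0.68, adjusted p = 0.0351). UQCRB, a structural subunit of complex III, was also among those called higher (0.63, adjusted p = 0.0806), although its groups overlapped, and COX6C, a structural subunit of complex IV, was not called (0.47, adjusted p = 0.119).

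The list of nuclear ATP synthase subunits and factors holds 40 names, many of them older and newer symbols of the same gene. Only 2 of its genes are in the table, ATP5E and C14orf2. Neither was called, with limma differences of 0.36 (adjusted p = 0.232) and 0.41 (adjusted p = 0.133). Genes of that list with no symbol in the table were not analysed here.

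Mitochondrial transcription, RNA processing and RNA stability gave 4 of 39 names, some of which are older and newer symbols of the same gene. REXO2, a mitochondrial nuclease for short RNA fragments, was called higher, from 17.6 ± 1.77 to 26.0 ± 3.18 FPKM (SD, n = 3 each, limma adjusted p = 0.0529). LRPPRC, a protein that binds and stabilises mitochondrial messenger RNAs, is named here after its values were seen. It was at 55.1, 36.7 and 25.9 FPKM with PBS and at 21.5, 27.5 and 36.6 FPKM with METH, and the groups overlapped (limma difference -0.43, adjusted p = 0.214). REXO2 lost its call without PBS 12, METH 1 or METH 2. MTERF2 (-0.83, adjusted p = 0.121) and PNPT1 (-0.10, adjusted p = 0.831) were not called either.

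For the large ribosomal subunit, which is built on MT-RNR2, 6 genes of the list are in the table, with 2 called higher, none lower and a median of 0.52. They were MRPL42, a mitochondrial ribosomal protein (0.75, adjusted p = 0.0385), and NSUN4, an RNA methyltransferase needed for assembly of the mitochondrial ribosome (0.57, adjusted p = 0.0944). None was called higher without METH 1 or without METH 2, 1 without PBS 10 or without PBS 12, and 3 without PBS 11 or without METH 3. With libraries scaled to the same median ratio, with totals without mitochondrial genes, or without PBS 10, 2 genes of the list were called lower. MRM2, which methylates MT-RNR2, had a limma difference of -0.37 (adjusted p = 0.125).

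Of 19 names of regulators of mitochondrial biogenesis, 6 are in the table, with 3 called lower, 1 higher and a median of -0.29. MYC, a transcription factor for growth genes, was at 54.8, 18.8 and 54.3 FPKM in the PBS libraries and at 9.58, 10.4 and 16.4 FPKM in the METH libraries. PERM1, a regulator of oxidative metabolism, had a limma difference of -1.23 (adjusted p = 0.0339), and TFEB, a regulator of lysosome genes, one of 0.80 (adjusted p = 0.0956) with overlapping groups. The call of TFEB was lost with 1 added before log2, without a trend, with totals without mitochondrial genes, and without PBS 10, PBS 12, METH 1 or METH 2. The 3 called lower became 2 with a library other than PBS 11 left out. Of 26 names of mitochondrial quality control and dynamics, 5 are in the table, and OPTN, an autophagy receptor for damaged mitochondria, was the 1 called (0.87, adjusted p = 0.0406). The number called higher on that list was 0 without PBS 12, METH 1 or METH 2, 2 without METH 3 and 3 without PBS 11.

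**Figure D5:**
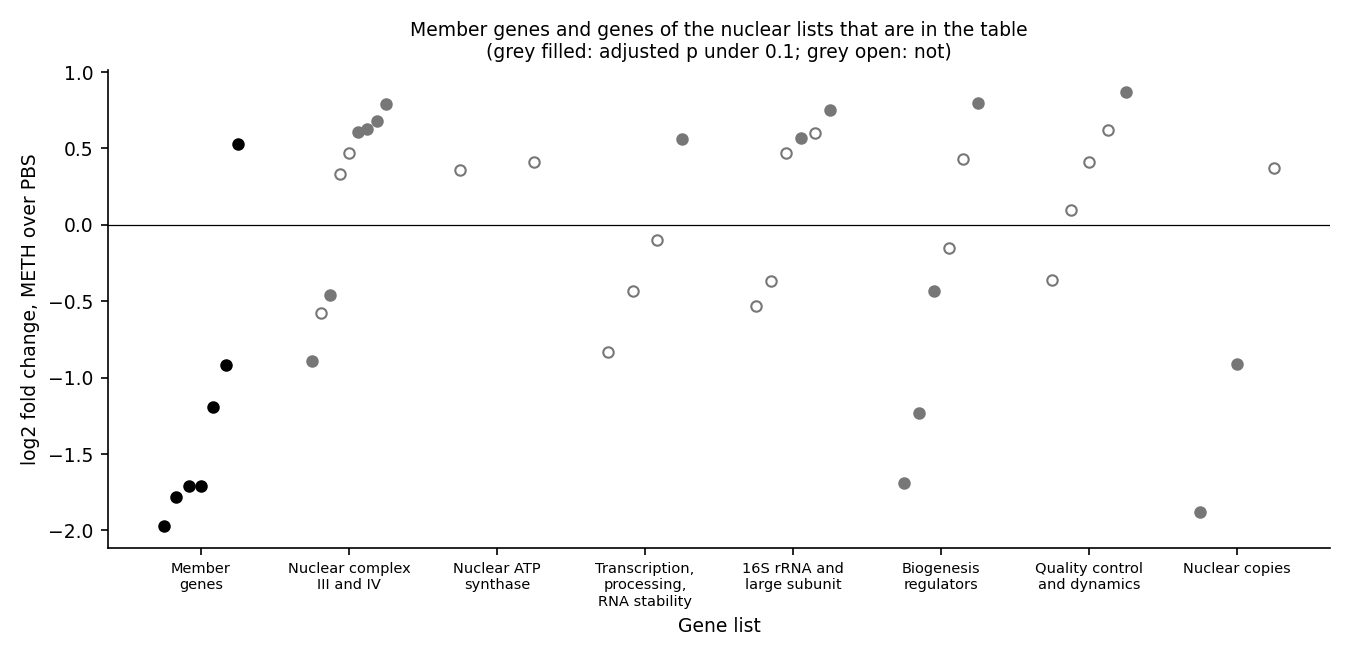
Difference between METH and PBS on the log2 scale (limma) for the 7 genes described here (black) and for genes of the nuclear lists that are in the table (grey, filled where the adjusted p-value was under 0.1). The nuclear subunits and assembly factors of complexes III and IV reach from -0.89 to 0.79. The 6 messenger RNAs among the 7 genes lie at -0.92 or lower.

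The labelled cell type was checked on its markers as far as the table holds them. Of 20 sympathoadrenal neuroblastoma markers, 9 are in the table, with 6 called lower and 2 higher beside 35.8% and 33.3% of all genes. GATA2, a transcription factor, was lower with METH (441 ± 57.1 to 270 ± 8.38 FPKM, SD, n = 3 each), and CHGB, a protein of secretory granules, was higher (243 ± 23.2 to 459 ± 48.1 FPKM, SD, n = 3 each). The 9 summed to 1020 to 1100 FPKM in the PBS libraries and 908 to 1010 FPKM in the METH libraries. Of 10 mesenchymal or fibroblast markers, 4 are in the table, with 1 called lower (PDGFRA) and 2 higher (DCN and LUM). They summed to 221 to 322 FPKM with PBS and 300 to 439 FPKM with METH. Most of that sum was TWIST1, at 189, 268 and 297 FPKM with PBS and 397, 342 and 256 FPKM with METH. TWIST1 was not called (limma adjusted p = 0.182), and its groups overlapped. Of 7 astrocyte markers, 2 are in the table, with 1 called lower (SLC1A2) and 1 higher (GJA1), and they summed to 0.831 to 1.46 FPKM with PBS and 2.10 to 2.72 FPKM with METH. None of the 6 microglia or macrophage markers is in it. The part of these marker changes in the mitochondrial values was not tested.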

How the data were processed

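Illumina HiSeq reads came from mRNA libraries of 6 SH-SY5Y cultures. The authors deposited 1 table with an FPKM column per library (as headed), the FPKM mean of each group, and the fold changes and p-values of their DESeq2 comparison, which were not used. All 4101 genes are marked significant in it. Aligner, counting tool and genome build are not given in the sources used here. All values fall on multiples (within 0.00051) of 1 increment per library. If each increment is a read, the columns were scaled to 85.7 to 111 M reads, but length-scaled estimates would give the same, so depth is unknown and no counting interval is given.

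METH and PBS were compared by limma 3.58.1 under R 4.3.3, as a linear model with moderated variances that follow a trend on expression, fitted to log2(FPKM + 0.1), with Benjamini-Hochberg adjustment over the 4101 genes and a threshold of 0.1. The pseudocount understates changes of low genes. Alternatives were a pseudocount of 1 or 0.01, a mean filter of 1 FPKM, no trend, median-ratio scaling, totals without mitochondrial genes, leaving out each library, and 0.05 as the threshold. Named genes are the 7 members, other MT- genes, up to 3 called genes per list by size of change with a mean of at least 1 FPKM in a group, and the 5 genes most alike in pattern, of which 1 is not reported here; further names were picked with their values in view. The members and lists were chosen with earlier results of these data known. Lists came from general knowledge, and nuclear genes in them are named as in the table. Several lists hold older and newer symbols of the same gene, so they have more names than genes. Positions and sequences are those of GENCODE release 29, in which 4093 of the 4101 identifiers were found. Python 3.11.15, numpy 2.4.6, pandas 2.3.3 and matplotlib 3.10.9 were used.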

Additional observations from a re-analysis of the deposited data

How the results depend on the processing

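Under the alternatives tried, the 6 messenger RNAs kept a negative and MT-RNR2 a positive limma difference. The median difference of the 6 was -1.71, from -1.78 to -1.71 under other values added, filters and scalings, and from -2.06 to -1.46 with a library left out. The log2 ratio of MT-RNR2 to the messenger RNAs stayed at 1.92 except with a library left out (1.72 to 2.28). The number of the 7 genes called lower was 5, 3 to 6 with a library left out (the fewest without METH replicate 1), 4 at a threshold of 0.05, 5 with 1 added, and 6 under the other 5 alternatives, which also called MT-CO2. The number called higher was 0, and 1 when limma was run without a trend. Over all genes, 1467 were called lower and 1366 higher, and 783 and 696 at a threshold of 0.05. With a library left out these counts ranged from 563 to 1368 and from 412 to 1551, the fewest without METH replicate 2. The median of all genes was 0.11, and 0.05 when mitochondrial genes were left out of the totals. Tests on counts were planned for values that are reads, and were not run because the whole numbers behind the values could not be shown to be reads. No paired analysis was possible because the PBS columns carry the numbers 10 to 12, which no METH column shares.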
